A study of Mus musculus with 40 samples.

Results

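The CXC chemokines examined here are the genes Cxcl1, Cxcl2, Cxcl5, Cxcl9, Cxcl10, Cxcl11, Cxcl12, Cxcl14 and Cxcl16. They were found by gene symbol among 29411 symbols and 40628 probes of a mouse array, and the 9 genes had 11 probes. Where a gene had more than 1 probe, the brightest on average stood for it, and the second probes of Cxcl12 and Cxcl16 are given where they differ. The RNA came from subcutaneous stromal vascular cells (SVCs), the mixture of macrophages, fibroblasts, endothelial cells and lymphocytes that is left when fat tissue is digested and the fat-filled adipocytes are removed.

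All mice were C57BL/6J and were put on their diets after weaning, at 3 to 4 weeks of age. LFC mice received a low-fat control diet with 10% of calories from fat. HFC mice received a diet with more sucrose and 60% of calories from fat. HF5, HF20 and HF75 mice received the HFC diet with 5 µg, 20 µg or 75 µg of Kal-1, an ethano-botanical formulation. Of 40 arrays, 38 were used, 11 of LFC, 11 of HFC, 6 of HF5, 5 of HF20 and 5 of HF75. LFC and HFC had arrays at days 1, 6, 10 and 14 and at weeks 0, 3, 6, 9, 12, 15 and 18, where weeks are counted from day 14, so that day 14 and week 0 are the same time. HF5 had arrays at weeks 3 to 18, and HF20 and HF75 at weeks 3 to 15. Each diet and time point had 1 array. How many mice were pooled for an array, if any, is not given in the sources used here, so p-values measure only the spread between these arrays, and fewer cells of a type cannot be told apart from less RNA per cell.

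Chemokines are small secreted proteins that attract leukocytes along a gradient. Those of the CXC family fall into groups by receptor: Cxcl1, Cxcl2 and Cxcl5 bind Cxcr2 and draw neutrophils, while Cxcl9, Cxcl10 and Cxcl11 are induced by interferons, bind Cxcr3 and draw activated T cells. Cxcl12 is made by stromal cells at all times and holds Cxcr4-bearing cells in place, Cxcl14 is made in tissues without inflammation, and Cxcl16 is anchored in the membrane of macrophages and dendritic cells and binds Cxcr6. In fat tissue these factors are known from obesity, when neutrophils, T cells and monocytes enter the tissue.

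Cxcl1 and Cxcl2 are neighbours on mouse chromosome 5, which also holds Cxcl5, Cxcl9, Cxcl10 and Cxcl11, whereas Cxcl12 lies on chromosome 6, Cxcl16 on chromosome 11 and Cxcl14 on chromosome 13. The promoters of Cxcl1, Cxcl2 and Cxcl10 are shown because each of these genes was low on the same arrays and each promoter holds a kappaB match, the binding sequence of the inflammatory factor NF-kB. The stretches run from position -200 to position -41 from the start site, 5′ to 3′ on the strand of the gene, from RefSeq (GRCm38.p6). Cxcl1 is chr5:90891045-90891204 on the + strand, Cxcl2 is chr5:90903699-90903858 on the + strand and Cxcl10 is chr5:92348930-92349089 on the - strand. Capitals mark the kappaB matches.
Cxcl1: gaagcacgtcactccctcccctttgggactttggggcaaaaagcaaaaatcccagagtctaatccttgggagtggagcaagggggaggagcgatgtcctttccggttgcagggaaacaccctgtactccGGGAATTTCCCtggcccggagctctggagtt
Cxcl2: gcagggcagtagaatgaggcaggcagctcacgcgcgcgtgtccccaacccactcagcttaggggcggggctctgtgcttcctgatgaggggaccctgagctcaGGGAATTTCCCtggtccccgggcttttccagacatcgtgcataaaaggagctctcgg
Cxcl10: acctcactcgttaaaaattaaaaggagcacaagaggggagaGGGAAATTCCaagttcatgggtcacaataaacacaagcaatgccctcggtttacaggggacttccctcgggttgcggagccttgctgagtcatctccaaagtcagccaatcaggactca

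Each motif was searched on both strands in the 250 bases before the start site. The kappaB motif was GGGANNTTCC, where N is any base, and it occurred in 1.21% of the 32851 promoters of the table. It was found at position -71 from the start site in Cxcl1 and at -97 in Cxcl2, in both genes with an overlapping match on the other strand 1 base further, and at -159 in Cxcl10. The core of the interferon-stimulated response element, GAAANNGAAA, occurred in 2.98% of promoters and was found at -213 in Cxcl10 and at -172 in Cxcl14. The GAS motif bound by Stat factors, TTCNNNGAA, occurred in 7.02% of promoters and was found at -191 in Cxcl14, on both strands because it reads the same on each. Cxcl9 and Cxcl12 held none of these 3 motifs in this window. The table matched 6 of the 9 members, and Cxcl5, Cxcl11 and Cxcl16 had no entry. A match is a run of letters and not a measured binding site.

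Levels are log2 intensities relative to the 75th percentile of each array, so that 0 is a bright spot and a step of 1 is a 2-fold difference. A value is called well above background as the scanner software marked it. A value that was not was raised to the floor, the lowest level on the same array that was, where it lay below it. Levels of different probes are not compared. The 75th percentile itself ran from 161 to 1793 intensity units over 36 arrays. The LFC array of week 3 was dim, with a 75th percentile of 7.86 and 16.8% of probes well above background against 52.2% or more on those 36 arrays. The LFC array of day 14 had 9104 spots marked as outliers, against at most 780 on those 36. Both stand apart and are left out where 36 arrays are named. Macrophage genes were measured throughout. Of 8 such genes, 6 to 8 were well above background on each of the 36 arrays. The LFC array of week 18 lacked stromal cells by its markers. On it the mean of 6 fibroblast genes such as Col1a1 and Dcn was -6.57, with 1 of the 6 well above background and a median of 4.23 over the 36 arrays, and the mean of 6 neutrophil genes was 4.94.

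Over all diets, Cxcl9, Cxcl10, Cxcl12, Cxcl14 and Cxcl16 were well above background on each of the 36 arrays. Cxcl1 was well above background on 34 of the 36, Cxcl11 on 32, Cxcl2 on 27 and Cxcl5 on 13. The order of these counts is one of detection by these probes, not of amount. Cxcl1, a main neutrophil attractant, ranged from -7.86 to 5.49 with a median of 2.55. Cxcl12, the stromal chemokine, stayed between 2.11 and 5.07 on 34 of these arrays, and the exceptions were LFC week 18 at -4.56 and HF5 week 3 at -0.82. On the HF5 array of week 3 the mean of the fibroblast genes was 2.25 and that of 5 endothelial genes was -2.0, in both lists the lowest of the 36 arrays other than LFC week 18.

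**Figure D1:**
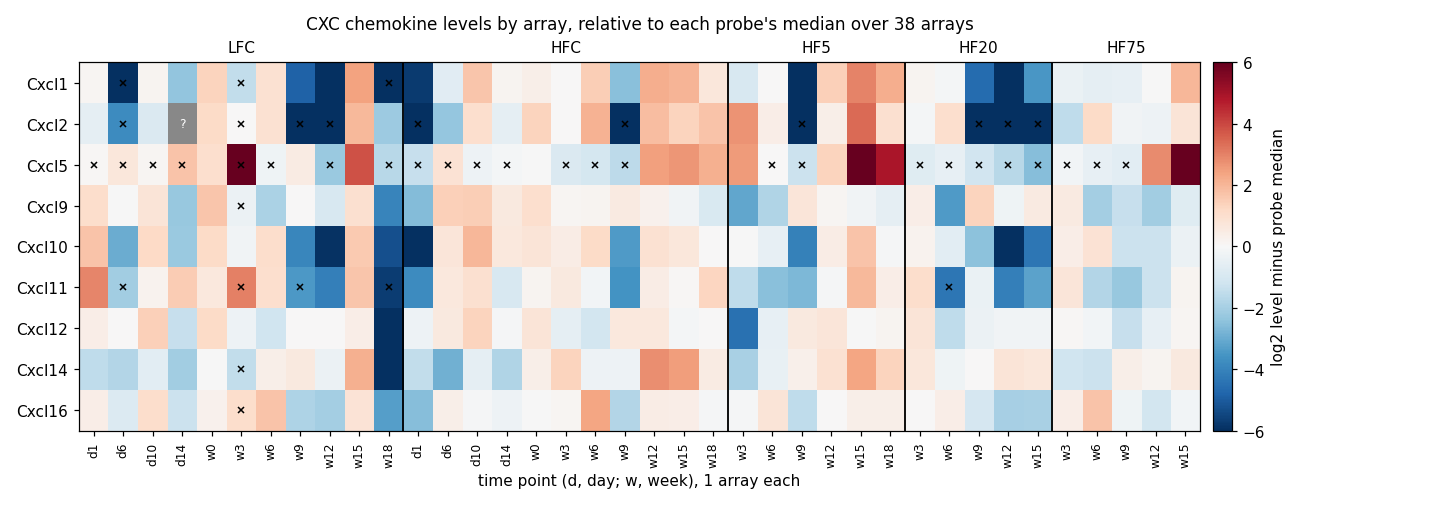
Level of each member (rows) on each of the 38 arrays (columns, by diet and time point), as the log2 difference from the median of the same probe, with colours cut at 6 in either direction. Crosses mark values not well above background, and the question mark is the Cxcl2 spot of LFC day 14, dropped as an outlier. Cxcl1, Cxcl2 and Cxcl10 were blue together on the HFC day 1, LFC week 12 and HF20 week 12 arrays and on 4 week 9 arrays. They were also below their medians together on LFC day 6, HF20 week 15 and LFC week 18. On these arrays the brighter Cxcl12 probe, the one shown, stayed near its median, except on LFC week 18. There its level was -4.56.

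The diet comparison asks whether the high-fat diet changed the level of these chemokines. Across the 11 time points, none of the 8 members tested passed the threshold, and 7 of the 8 fitted differences were positive, with a median of 0.90 against -0.05 over all probes. No probe of 29264 was called (0%; limma with Benjamini-Hochberg adjusted p under 0.05), and 773 had an unadjusted p under 0.05, none of them a member. The difference was largest for Cxcl1. Its level ran from -7.86 to 4.93 on the 11 LFC arrays with a median of 1.06, and from -3.22 to 4.69 on the 11 HFC arrays with a median of 2.88. The groups overlapped over most of their range. HFC was 2.43 higher on the log2 scale (SE 1.22, 95% interval -0.19 to 5.04, limma adjusted p = 0.963), higher in 8 of 11 pairs.

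The Cxcl1 difference rested in part on weeks 12 and 18. Without week 18 it was 1.57, without week 12 it was 1.78, and without week 3 and day 14, whose LFC arrays stood apart, it was 2.52. Without day 1, where HFC was lower than LFC, it was 3.26. Cxcl1 was well above background on 8 of 11 LFC arrays and on 11 of 11 HFC arrays. At week 12 the LFC level was -4.24 and the HFC level 4.69. With array weights, which down-weight the arrays that scatter most, it was 0.87. Only 4 HFC and LFC pairs shared a slide, and in these the difference was 2.09.

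The other neutrophil attractants gave no call either. Cxcl2, the close relative of Cxcl1, ran from -8.45 to 1.88 on 10 LFC arrays and from -7.76 to 2.03 on 11 HFC arrays, and was well above background on 6 and 9 of them. Its difference was 1.06 (SE 1.14, 95% interval -1.42 to 3.53). The week 12 pair, with LFC at the floor, differed by 10.22. Under the alternative settings the Cxcl2 difference ran from 0.04 to 1.92. Cxcl5, made mainly by stromal and epithelial cells, was well above background on 3 LFC and 4 HFC arrays and was not tested.

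Among the Cxcr3 ligands, Cxcl9 differed by 0.62 (SE 0.53), Cxcl10 by 0.94 (SE 1.09) and Cxcl11 by -0.01 (SE 0.97). Cxcl9 ran from -2.56 to 3.08 in LFC and from -1.19 to 2.89 in HFC. Cxcl10 ran from -3.55 to 4.12 in LFC and from -5.03 to 4.37 in HFC. The intervals of all 3 genes included 0, and the widest, that of Cxcl10, reached from -1.39 to 3.27. Cxcl12 differed by 0.86 (SE 0.68), Cxcl14 by 1.03 (SE 0.64) and Cxcl16 by 0.26 (SE 0.49). These also rested in part on single pairs. The week 18 pair, whose LFC array lacked stromal cells by its markers, differed by 8.24 for Cxcl12. Under the alternative settings the Cxcl12 difference ran from 0.12 to 1.23. That of Cxcl16 was -0.04 without week 18.

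**Figure D2:**
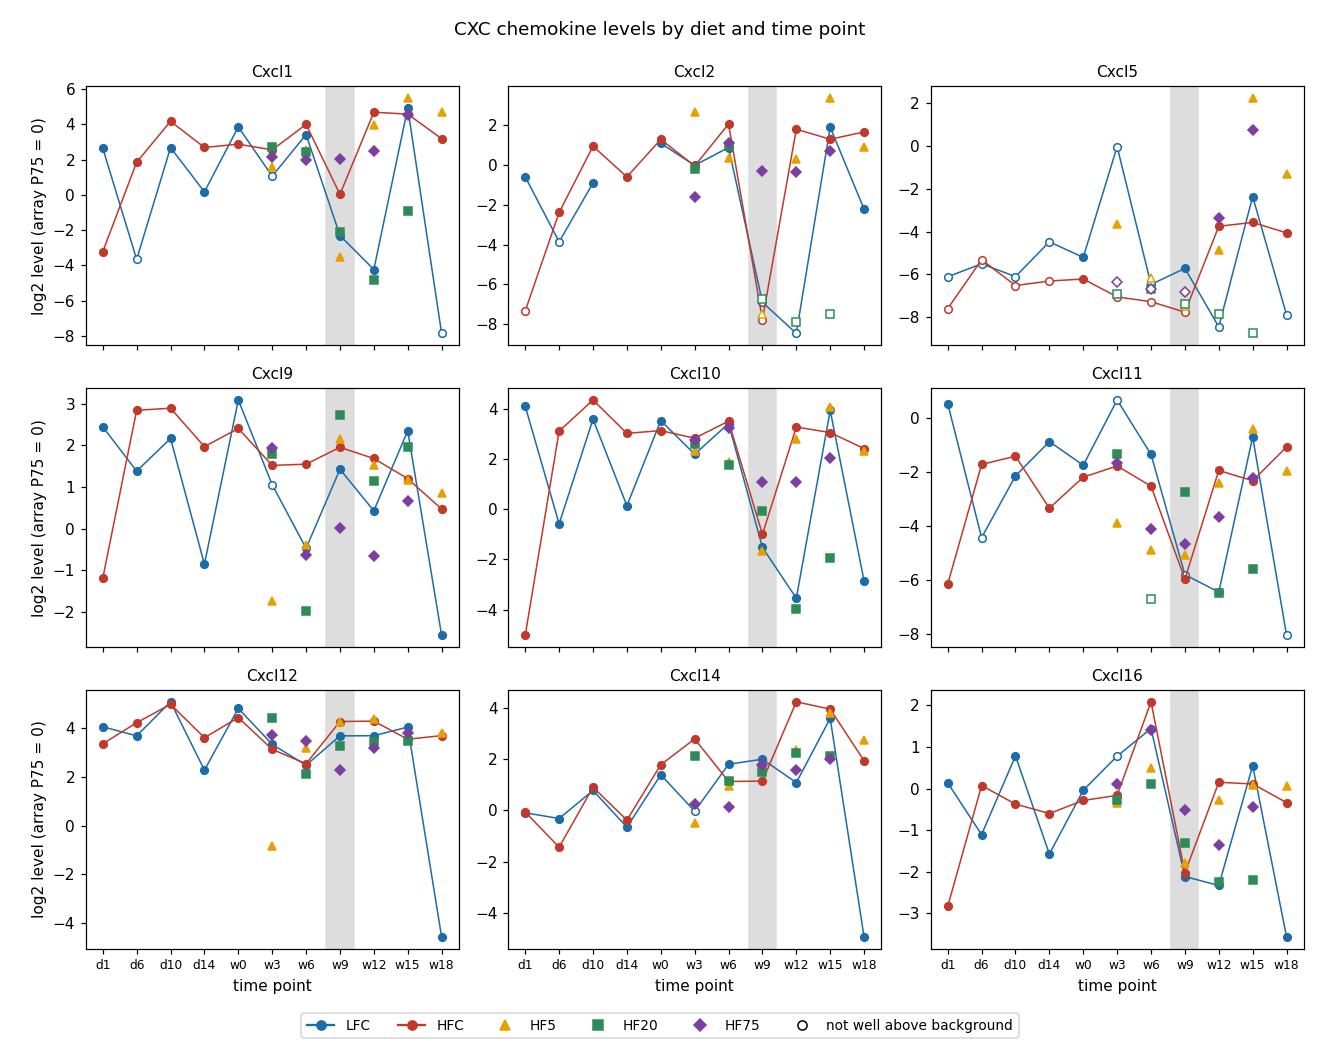
Level (log2, 75th percentile of the array at 0) of each member at each time point, with 1 array per point and lines for LFC and HFC. Open symbols were not well above background, and the grey band is week 9. Cxcl1, Cxcl2, Cxcl10 and Cxcl16 were low at week 9 in LFC, HFC, HF5 and HF20 and higher in HF75.

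Single time points have no replicate, and their differences compare 2 arrays only. Counting a difference of at least 2-fold whose higher side was well above background, members differed in 49 of 91 measured cases (53.8%), HFC being higher in 34 of the 49 (69.4%). Over all probes and time points 36.4% of cases were past 2-fold, with HFC higher in 54.2% of them. At day 1, 6 of 8 members were past 2-fold and all 6 were lower in HFC, where 56.0% of all probes were past 2-fold. The difference was largest for Cxcl10, at -5.03 in HFC and 4.12 in LFC. The mean of 7 adipocyte genes was 4.24 in HFC and 1.05 in LFC on these arrays, and that of 11 immediate-early genes 0.14 and 4.46. At day 6 the direction was the opposite for 6 of the 7 members past 2-fold, with 54.9% of probes past it. Cxcl1 was at 1.86 in HFC and not well above background in LFC.

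At day 10, 3 of 8 members were past 2-fold (22.9% of probes), and at day 14, 5 of 7 (78.5%). At week 0, which is the same time as day 14, only Cxcl5 of 9 members was, with 6.52% of probes. At week 3, 2 of 8 members, Cxcl1 and Cxcl14, were past 2-fold (23.3%), both against LFC values not well above background on the dim array. At week 6 it was 3 of 8 (22.9%) and at week 9, 2 of 8 (15.2%). At week 12, 8 of 9 members were past 2-fold, all higher in HFC, against 46.0% of probes. The adipocyte mean was 1.37 in HFC and 4.73 in LFC at week 12, and the immediate-early mean 5.06 and -0.23. The part of these genes in the chemokine differences was not tested. At week 15 it was 3 of 9, all higher in LFC (23.2%). At week 18 all 9 were higher in HFC, against 48.6% of probes, with Cxcl12 at 3.68 in HFC and -4.56 in LFC, on the LFC array with few stromal transcripts. By gene, Cxcl1 was past 2-fold at 8 of 11 time points and Cxcl12 at 2 of 11.

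Kal-1 was given on top of the high-fat diet, and each dose was compared with HFC at the same weeks. In HF5 none of the 9 members tested passed the threshold, and no probe of 29206 was called (0%; 1418 at an unadjusted p under 0.05). Cxcl5 was the member with the widest difference. On HF5 arrays it was -3.65, -6.18, -7.48, -4.84, 2.23 and -1.30 at weeks 3, 6, 9, 12, 15 and 18. On HFC arrays of the same weeks it was -7.05, -7.27, -7.76, -3.75, -3.57 and -4.06. Neither diet was well above background at weeks 6 and 9, and in the 4 other weeks HF5 was higher in 3. The difference was 2.04 (SE 0.82, 95% interval 0.13 to 3.95, limma adjusted p = 0.976), and 1.29 without week 15. Of the 9 fitted differences, 7 were negative.

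HF20 was lower than HFC in all 8 fitted differences, with a median of -1.44 against 0.08 over all probes, and none was called. No probe of 30833 was called (0%), and 3416 had an unadjusted p under 0.05, with Cxcl1 among them. Cxcl1 was 2.71, 2.42, -2.10, -4.83 and -0.94 on the HF20 arrays of weeks 3, 6, 9, 12 and 15, and 2.56, 4.00, 0.03, 4.69 and 4.59 on the HFC arrays. The HF20 arrays of weeks 12 and 15 were below every HFC array of these weeks. The difference was -3.72 (SE 1.37, 95% interval -7.01 to -0.43, limma adjusted p = 0.425). By the same fit Cxcl10 differed by -2.67 (SE 1.22) and Cxcl2 by -3.71 (SE 1.79), where Cxcl2 was not well above background on the HF20 arrays of weeks 9, 12 and 15 and on the HFC array of week 9, so that this value depends on the floor of these arrays. Without week 12 the Cxcl1 difference was -2.27, that of Cxcl2 -2.23 and that of Cxcl10 -1.51. Cxcl12 differed by -0.21 (SE 0.37) by its brighter probe and by -0.54 (SE 0.23) by its second, and neither was called.

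The HF20 arrays of weeks 12 and 15 also carried adipocyte transcripts. On these arrays the mean of the 7 adipocyte genes, among them Adipoq (adiponectin) and Plin1 (the coat of fat droplets), was 5.36 and 4.88. Over the 36 arrays this mean was either between 4.24 and 5.40, on 10 arrays, or at most 2.38, on 26 arrays. Among the HF20 and HFC pairs, weeks 3, 6 and 9 had both arrays on the same side of this gap. In these 3 pairs, the Cxcl1 difference was -1.18, that of Cxcl2 -0.07 and that of Cxcl10 -0.35. The Cxcl2 value includes week 9, where both levels were too dim to rank, at -6.71 in HF20 and -7.76 in HFC. Whether adipocyte content played a part in the HF20 differences was not tested.

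HF75 had 292 of 28913 probes called (1.01%, 233 of them higher), and 0 of 8 members. By unadjusted p, 4200 probes and 2 members were under 0.05. The first member was Cxcl14, a chemokine of tissue at rest, which was 0.23, 0.12, 1.77, 1.58 and 2.01 on the HF75 arrays of weeks 3 to 15 and 2.78, 1.12, 1.14, 4.23 and 3.94 on the HFC arrays. HF75 was lower in 4 of 5 weeks, and the difference was -1.5 (SE 0.50, 95% interval -2.69 to -0.31, limma adjusted p = 0.246). With array weights it was -2.16 and was called (limma adjusted p = 0.014). The second was Cxcl9, lower in 4 of 5 weeks, with a difference of -1.32 (SE 0.46, limma adjusted p = 0.256) that was -0.52 with array weights. Cxcl5 was not tested, being well above background in both diets at weeks 12 and 15 alone, where it was -3.35 and 0.74 in HF75 and -3.75 and -3.57 in HFC. The 292 probes depended on single weeks, with 0 called without week 3, 7 without week 6, 198 without week 9, 85 without week 12 and 35 without week 15.

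The week 9 pair of HF75 and HFC differed in kind, since the HFC array of week 9 was 1 of 4 week 9 arrays with the letters WS in their titles and the HF75 array was not. Without week 9 the Cxcl14 difference was -2.04 and that of Cxcl9 -1.17. That of Cxcl2, which was not well above background on the HFC array of week 9, went from 0.45 to -1.30, and that of Cxcl1 from -0.53 to -1.17. None was past the threshold. Dpt, a fibroblast matrix gene, was the only gene of the pathway and marker lists called in HF75 (-2.43, SE 0.38, limma adjusted p = 0.0398).

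**Figure D3:**
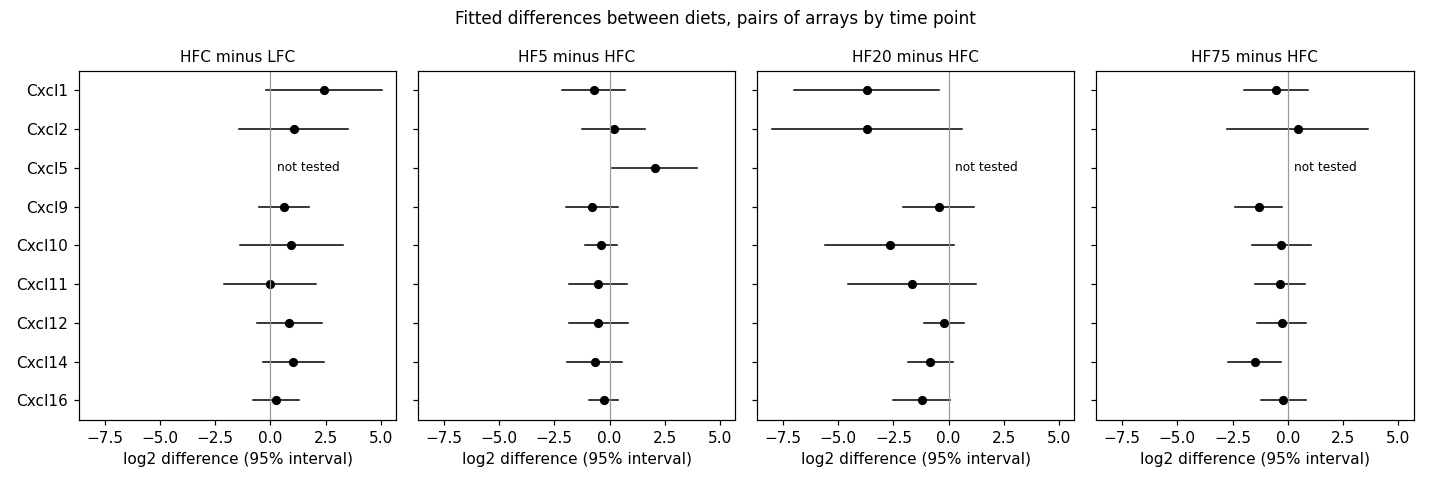
Fitted log2 difference (points) with 95% interval (lines) for each member in the comparison of HFC with LFC and of each Kal-1 dose with HFC. The intervals of Cxcl1 in HF20, of Cxcl9 and Cxcl14 in HF75 and of Cxcl5 in HF5 lay beside 0, but none of these differences passed the adjusted threshold.

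Whether levels followed the dose was fitted as a slope over HFC, HF5, HF20 and HF75 of weeks 3 to 15. No probe of 31280 was called (0%; 2338 at an unadjusted p under 0.05), and 8 of 9 member slopes were negative. That of Cxcl14 was -0.44 per dose step (SE 0.17, 95% interval -0.79 to -0.09, limma adjusted p = 0.556), and with array weights -0.61, where it was called (adjusted p = 0.00567). Cxcl16, the membrane chemokine, had a slope of -0.14 (SE 0.16), and Cxcl12 of -0.04 (SE 0.23). For the second probes the slopes were -0.28 (SE 0.13) for Cxcl16 and 0.11 (SE 0.21) for Cxcl12, and neither was called.

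Time on diet was compared between weeks 3 to 18 and the earlier arrays, in LFC and HFC together. Of 30570 probes 1 was called (0.00327%), and 1315 had an unadjusted p under 0.05, with no member among them. Cxcl14 was 1.36 higher late (SE 0.76, limma adjusted p = 1.0). The brighter Cxcl12 probe was lower, with a difference of -1.20 (SE 0.75, limma adjusted p = 1.0). The second Cxcl12 probe did not show this, with a difference of -0.07 (SE 0.76). Cxcl14 ran from -1.44 to 1.77 on the 10 early arrays and from -4.93 to 4.23 on the 12 late ones, so that the groups overlapped. Its lowest late value was that of LFC week 18, and without that week the difference was 1.98. For the brighter Cxcl12 probe the difference was -0.55 without week 18.

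Cxcl5 was detected more often on the late arrays of some diets. Over the 36 arrays it was well above background on 2 of 9 arrays up to week 0, on 2 of 14 of weeks 3 to 9 and on 9 of 13 of weeks 12 to 18, where the arrays up to week 0 are of LFC and HFC alone. By diet, the 9 were 1 of 3 LFC, 3 of 3 HFC, 3 of 3 HF5, 0 of 2 HF20 and 2 of 2 HF75 arrays. Its highest values were 2.23 on HF5 week 15 and 0.74 on HF75 week 15. No scan day held both early and late arrays. With scan day as a random block the late minus early difference was 1.38 for Cxcl14 and -1.19 for the brighter Cxcl12 probe, and neither was called.

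Whether the diet difference itself changed was tested on the 11 pairs. In the main setting all 8 members, which share these arrays, had a larger HFC difference late. Their median was 2.13, where the median over all probes was -0.57. No probe of 30570 was called (0%; 1383 at an unadjusted p under 0.05, no member). For Cxcl1 the change was 3.47 (SE 2.36), 2.06 without week 18 and 1.87 without day 1. That of Cxcl12 was -0.03 without week 18, that of Cxcl9 -0.06 without day 1 and that of Cxcl14 -0.08 with array weights. In the same comparison the medians of the pathway and marker lists ran from -0.55 for adipocyte genes to 4.03 for lymph node genes.

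The clearest change was between arrays of one week and not between diets. At week 9, every diet except HF75 had an array with the letters WS in its title, which the labels do not explain. These 4 arrays, of LFC, HFC, HF5 and HF20, were scanned on 1 day that no other array shares. They were compared with the arrays of the same diets at weeks 6 and 15. Of 31349 probes 2134 were called (6.81%, 1423 higher and 711 lower), and 2 of 8 members, Cxcl1 and Cxcl2. Both were lower on the week 9 arrays.

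Cxcl1 was -2.31, 0.03, -3.54 and -2.10 on the WS arrays of LFC, HFC, HF5 and HF20. At week 6 it was 3.43, 4.00, 2.54 and 2.42, and at week 15 it was 4.93, 4.59, 5.49 and -0.94. Only HF20 week 15 fell within the range of the WS arrays. The difference was -5.29 (SE 0.92, 95% interval -7.34 to -3.23, limma adjusted p = 0.0402).

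Cxcl2 was not well above background on any of the 4 WS arrays, where its levels were -6.89, -7.76, -7.48 and -6.71, each the floor of the array or, where higher, the probe's own value. At week 6 it was 0.86, 2.03, 0.32 and 0.92, and at week 15 it was 1.88, 1.27, 3.33 and, not well above background, -7.45 on HF20. It was at least 195-fold lower on the WS arrays, with a mean of 0.39 at weeks 6 and 15, measured WS values of -7.67 on average and a fitted difference of -7.60 (SE 1.5, limma adjusted p = 0.0402). This estimate sets the WS levels against the mean of weeks 6 and 15, which holds the HF20 array of week 15 at its own dim value. It depends on the background correction: with normexp the fitted difference was -5.09.

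Cxcl10 and Cxcl16 lay close to the threshold. Cxcl10 was -1.52, -1.0, -1.64 and -0.06 on the WS arrays and between -1.94 and 4.10 on the others, a difference of -3.53 (SE 0.93, limma adjusted p = 0.0521). Cxcl16 was between -2.11 and -1.31 on the WS arrays and between -2.21 and 2.08 on the others, a difference of -2.14 (SE 0.61, limma adjusted p = 0.0631). In both, HF20 week 15 was the lowest of the 8 other arrays. Cxcl11 differed by -1.84 (SE 1.23) and Cxcl14 by -0.72 (SE 0.67). Cxcl9 was 1.39 higher (SE 0.80, limma adjusted p = 0.268), although it shares a receptor and a chromosome with Cxcl10. Cxcl5 was not tested, with 1 of 4 and 3 of 8 arrays well above background.

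The 2 probes of Cxcl12 went apart on the WS arrays. The brighter probe was 0.75 higher (SE 0.38, limma adjusted p = 0.219) and the second was lower and called, with a difference of -1.53 (SE 0.32, limma adjusted p = 0.041). The brighter minus the second was between 4.53 and 5.20 on the WS arrays and between 1.89 and 3.51 on the others, with no overlap. This pair was set side by side after its values were seen, and no test is given. Over the 36 arrays the 2 probes followed each other weakly (Spearman rho 0.269), and the sources used here do not say which transcripts each detects. The probes of Cxcl16 had a rho of 0.832 and on the WS arrays their differences were -2.14, as above, and -1.54 (limma adjusted p = 0.116).

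**Figure D4:**
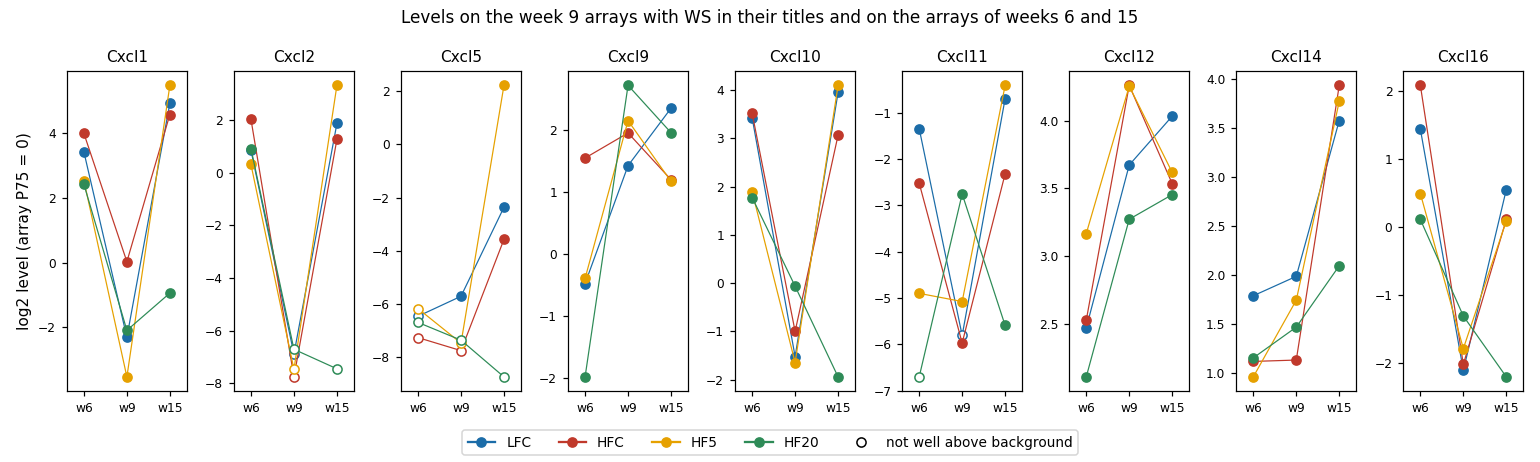
Levels (log2, 75th percentile of the array at 0) of each member at weeks 6, 9 and 15 in the 4 diets whose week 9 array has WS in its title. Open circles were not well above background. Cxcl1, Cxcl2, Cxcl10 and Cxcl16 dipped at week 9 in LFC, HFC and HF5 and stayed low at week 15 in HF20, whereas Cxcl9 and the brighter Cxcl12 probe did not dip.

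The calls for Cxcl1 and Cxcl2 depended on which arrays were set beside the WS arrays. Against week 6 alone the Cxcl1 difference was called, with 6 members and 8206 probes past the threshold, and against week 15 alone the differences of Cxcl1 and Cxcl2 were -5.49 and -6.97 with 0 probes called. Without LFC, HFC or HF5 0 probes were called, with Cxcl1 at -4.88, -5.63 and -4.53 and Cxcl2 at -7.39, -7.00 and -7.04, and without HF20 5932 were, with Cxcl1 at -6.10 and Cxcl2 at -8.99.

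Among the upstream genes of these chemokines, 6 of 11 NF-kB inducers and feedback genes were called and all 6 were lower on the WS arrays. The cytokines were Tnf (-5.16), Il1b (-5.60) and Il6 (-7.60), and the others were Nfkbia (-1.97), Nfkbiz (-4.17) and Tnfaip3 (-4.10). All 11 immediate-early genes were lower, from Jun at -2.05 to Fos at -6.10. These genes respond within minutes to growth factors and to stress. None of 9 genes of the interferon gamma response was called, and their median was -0.36, where that of all probes was 0.04. Of 7 CXC receptors tested, Cxcr5, the receptor of B cells, was called (-3.05). None of 5 other CXC ligands and none of 3 proteases that cut chemokines was. In the other comparisons no gene of these pathway lists was called.

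Markers of other cells moved with the WS arrays. Of 7 adipocyte genes 6 were called and higher, among them Lep (6.37), Plin1 (5.52) and Adipoq (3.84), and their mean was 4.61 to 4.99 on the WS arrays and -1.10 to 4.88 on the others, all 7 being well above background on every one of the 12 arrays. Of 5 epithelial genes 4 were lower, with Krt8 at -9.66. The arrays compared were rich in epithelial transcripts. The mean of these 5 genes had a median of -5.56 on the WS arrays, 1.86 on the others and -2.21 over the 36 arrays. Macrophage genes gave 1 call of 8, Cd14 at -2.98. Of the other marker lists, neutrophil genes gave 1 call, fibroblast genes 1 and lymph node genes 2, all lower, and endothelial, T cell, B cell and muscle genes 0. The part of these markers in the chemokine levels was not tested, and the WS letters and the scan day cannot be told apart. The HF75 array of week 9, without WS and scanned on another day, had Cxcl1 at 2.05, Cxcl2 at -0.30, Cxcl10 at 1.1 and Cxcl16 at -0.52, with an adipocyte mean of 1.76 and an immediate-early mean of 3.94. It is a single array of another diet.

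The same levels recurred on arrays outside week 9. The 10 of 36 arrays with the adipocyte mean above 4 were the 4 WS arrays, LFC and HFC of day 6, HFC of day 1, LFC and HF20 of week 12 and HF20 of week 15. On them Cxcl1 ran from -4.83 to 1.86 and Cxcl10 from -5.03 to 3.12, and Cxcl2 was well above background on 1 of 10. On the remaining 25 arrays without LFC week 18, Cxcl1 ran from 1.57 to 5.49 and Cxcl10 from 1.1 to 4.37, and Cxcl2 was well above background on all 25. HFC of day 6 was the only 1 of the 10 within the ranges of the 25 for both Cxcl1 and Cxcl10, whereas its Cxcl2 level of -2.39 was below the lowest of the 25, -1.61. It had an adipocyte mean of 4.74 but an immediate-early mean of 4.24, whereas the other 9 had immediate-early means of -0.77 to 2.82 and those 25 of 3.13 to 5.34.

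Cxcl9 and the brighter Cxcl12 probe on the 10 arrays lay within the range of the 25. Cxcl9 ran from -1.19 to 2.84 on the 10 arrays and from -1.98 to 3.08 on the 25. The brighter Cxcl12 probe ran from 3.27 to 4.26 and from -0.82 to 5.07. The second Cxcl12 probe was lower on several of the 10, where it ran from -2.76 on HFC day 6 to -0.06 on HF20 week 15. On the 25 it ran from -4.10 on HF5 week 3 to 1.46 on HF75 week 6. Apart from HF5 week 3, its lowest value on the 25 was -0.75, on HF75 week 9. Cxcl16 ran from -2.83 to 0.07 with a median of -2.07 on the 10 arrays, and from -1.36 to 2.08 with a median of 0.05 on the 25. Cxcl11 had medians of -5.70 and -2.14, and its ranges, from -6.47 to -1.72 and from -6.70 to 0.54, overlapped. These sets were made from the marker genes after the values were seen and carry no test.

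**Figure D5:**
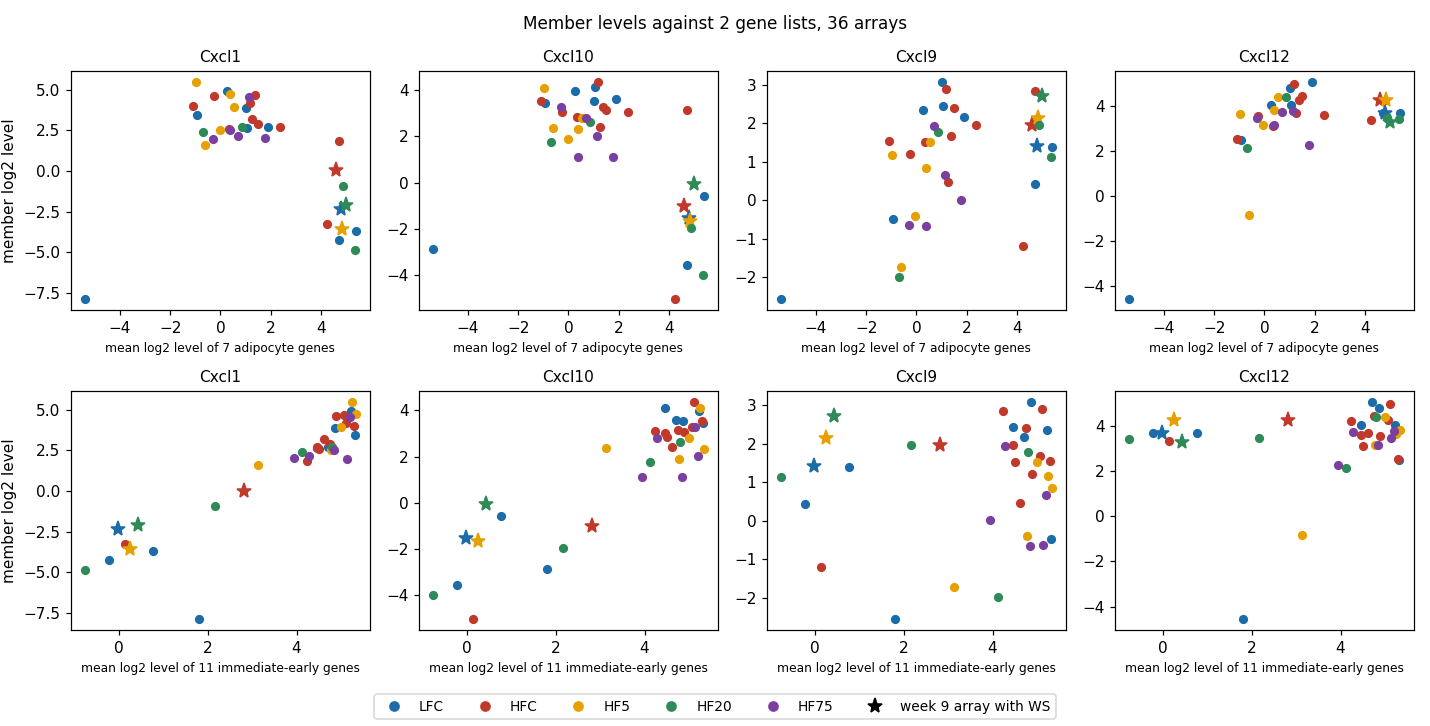
Levels of Cxcl1, Cxcl10, Cxcl9 and Cxcl12 (log2) against the mean log2 level of 7 adipocyte genes (top) and of 11 immediate-early genes (bottom) on 36 arrays, coloured by diet, with stars for the week 9 WS arrays. Cxcl1 and Cxcl10 were low where the adipocyte mean was above 4, except on HFC day 6. Cxcl9 and the brighter Cxcl12 probe, the one shown, lay there within the range of the other arrays. All 4 genes were low on LFC week 18, the point at the far left.

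The genes whose levels were most like each member were named by Spearman rho over the 36 arrays, and again over the 26 with a low adipocyte mean. These are descriptions, since the arrays share diets, weeks, slides and cell makeup. For Cxcl1 they were Ccl7, a monocyte attractant (0.955, and 0.912 over 26), Has1, a hyaluronan synthase (0.943 and 0.878), and Gprc5a (0.937 and 0.906). For Cxcl2 they were Ccl3 (0.951 and 0.878), Ccrl2 (0.921 and 0.824) and Ccl4 (0.915 and 0.796), of which Ccl3 and Ccl4 are macrophage chemokines. For Cxcl5 they were Pcsk1 (0.836), the pentraxin Ptx3 (0.806) and Sox2 (0.803), with Cxcl5 well above background on 13 of the 36 arrays.

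For the Cxcr3 ligands most of the nearest genes were known interferon targets, with Bambi as the exception. Cxcl9 was nearest to Gbp2 (0.821 and 0.843), Rtp4 (0.807 and 0.823) and Mpa2l (0.803 and 0.761). Cxcl10 was nearest to Ifit1 (0.918 and 0.854), Bambi (0.901 and 0.771) and Oasl1 (0.852 and 0.694), and Cxcl11 to Gbp5 (0.862 and 0.730), Ifit2 (0.844 and 0.828) and Ifit1 (0.840 and 0.739). Bambi is a decoy receptor of the TGF-beta family. Between members, Cxcl10 and Cxcl11 had a rho of 0.815 (0.657 over 26), and Cxcl9 and Cxcl10 of 0.447 (0.716 over 26).

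Cxcl12 was nearest to Robo4, an endothelial guidance receptor (0.860 and 0.912), Ppm1f (0.856 and 0.940) and Itpripl1 (0.829 and 0.867). Cxcl9 and Cxcl12 had a rho of 0.710 (0.820 over 26). Cxcl14 was nearest to Mmp3, a matrix protease (0.783 and 0.781), Serpinb6c (0.782 and 0.789) and Adh7 (0.75 and 0.808). Cxcl16 was nearest to Fndc7 (0.864), Col8a2 (0.859) and Sh3gl2 (0.858).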

How the data were processed

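Subcutaneous SVCs were measured on 1-colour Agilent arrays. Per the file headers, the deposited intensities are those of Feature Extraction 10.5.1.1, background-subtracted and detrended within an array, with no step between arrays. A further deposited table holds log2 fold changes of the authors against the LFC array of the time point, and of it only the gene symbols served here. The flags for outliers and for signal well above background are other columns of the same deposited files. The HF75 file of week 9 holds values with fewer digits than the others.

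In the main setting, the 75th percentile of each array was subtracted from its log2 intensities, dim values below the lowest level well above background on the array were set to that level, spots marked as outliers were dropped and spots of a probe were averaged. A probe that was well above background in 50% or more of the arrays on either side entered limma 3.58.1 (R 4.3.3), with the time point or diet as a block and Benjamini-Hochberg adjustment over all probes tested, at an adjusted p under 0.05. The script was tested on simulated data. Other steps used Python 3.11.15, NumPy 2.4.6, pandas 2.3.3 and SciPy 1.17.1. The ratio of signal to background had a median of 4.86 over arrays (lowest 1.52, highest 55.4), and the number of arrays limits the precision.

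The members, the lists and the tests were chosen with earlier results of these data known. The genes named were all members, list genes past the threshold and the 3 genes most like each member among genes well above background on 50% or more of the 38 arrays. Alternatives were a normexp background correction (offset 50), quantile normalization, no filter, no raising of dim values, outlier spots kept, array weights, no block, slide as a block, pairs on a shared slide, each time point or diet left out, the mean of a gene's probes and a 1.5-fold threshold. Scan day as a block and pairs alike in adipocyte marker level were chosen after seeing the data. Both arrays whose labels conflict between HF20 and HF75 at week 18 were left out of all groups.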

Additional observations from a re-analysis of the deposited data

Results flagged for a closer look

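In groups of 5 or 6 arrays, 4 of 27 combinations of member and Kal-1 dose had an array far from the others of its group. The rule has a nominal rate of about 1 in 20 for independent arrays of 1 kind. The arrays of a group here are of different weeks, and the members share arrays. The share of all probes so flagged is not given, so the count is not read as an excess. Cxcl1 was 4.53 on HF75 week 15, against 1.98 to 2.52 on the other HF75 arrays. Cxcl2 was -7.48 on HF5 week 9, not well above background, against 0.30 to 3.33. Cxcl16 was -1.79 on HF5 week 9, against -0.34 to 0.49. Both low values are on the HF5 array with WS in its title. Cxcl12 was -0.82 on HF5 week 3, against 3.17 to 4.38, on the array whose mean of 5 endothelial genes was -2.0.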

How the results depend on the processing

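The count of members called was 0 in the comparisons of diets, doses and time under nearly all settings, the exception being array weights, with 1 member (Cxcl14) in HF75 against HFC and 1 (Cxcl14) in the dose slope. Of 1110 member values under alternatives, 1084 kept their side of the threshold, 10 lost a call and 16 gained one, and 0 called values changed sign. Most of these values were not called in the main setting, so that the 1084 say little about the calls. The members called there were Cxcl1 and Cxcl2 on the WS arrays, each called in 8 of 13 alternatives. Of the values that were not called, 68 changed sign. Probes called in HF75 against HFC went from 292 to 56 with normexp, 1434 with array weights and 0 without the time block, and from 0 to 198 with a week left out. For the dose slope they went from 0 to 1 with quantile normalization and 1741 with array weights. Late against early, 1 probe became 0 with normexp, quantile normalization, all probes, without week 3 and day 14, and with slide or scan day as a block, 162 with array weights, and 0 to 4 with a time point left out.

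For the week 9 WS arrays, probes called went from 2134 to 4 and members from 2 to 0 with all probes tested, to 12977 and 6 with array weights, to 8206 and 6 against week 6 alone, and to 0 and 0 against week 15 alone. Members called were 4 with normexp. With a diet left out the range was 0 to 5932 probes and 0 to 5 members. Leaving out a diet or a week leaves fewer arrays, and all probes means more tests. For the rest the cause was not tested. The count of 49 members past 2-fold was 64 at 1.5-fold, 45 with normexp and 51 with quantile normalization. The diet and dose comparisons were blocked by time point in the main setting. Beyond that block, by replicate number, no paired analysis was possible because each diet has 1 array per time point. Where Cxcl2 and Cxcl5 were not well above background, their differences have no order.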

Other observations

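The 2 arrays of week 18 whose labels conflict between HF20 and HF75 were in no group. Cxcl1 was 2.10 and 3.80 on them, Cxcl2 -0.29 and 1.16, Cxcl10 0.63 and 1.82 and Cxcl14 0.05 and 3.02. Cxcl9 was -1.07 and 0.48, Cxcl12 2.76 and 4.19 and Cxcl16 -0.96 and -0.10. Cxcl5 was well above background on the first of the 2, at -4.19.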
